A study of Mus musculus with 6 samples.

Results

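The Ifit genes of the mouse were followed in liver that expressed an activated form of the transcription factor IRF3. The family was taken as the 5 genes Ifit1, Ifit1bl1, Ifit2, Ifit3 and Ifit3b, found by their symbols among the 20894 gene identifiers of the deposited table, and all 5 had a row and passed the filter on low counts, Ifit1bl1 through its IRF3-2D libraries alone. RNA was sequenced from 6 liver samples, 3 labelled IRF3-2D and 3 labelled Ctrl. All came from Irf3LSL-2D mice, whose IRF3-2D allele stays silent behind a stop cassette until Cre removes it. IRF3-2D livers had received AAV8-TBG-Cre, an adeno-associated virus in which the hepatocyte-active TBG promoter drives Cre. Ctrl livers had received AAV8-TBG-GFP, the same kind of vector with GFP in place of Cre. Mice of both groups were given 3 g/kg ethanol by intraperitoneal injection and liver was taken 2 h later, so no sample is free of ethanol, and Cre, GFP and the active allele cannot be told apart in this comparison. No source used here gives age or strain background, and whole liver was sequenced, so its cell types are pooled.

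IFIT proteins are built from tetratricopeptide repeats and are among the most strongly inducible products of the antiviral response. IFIT1 binds the 5′ end of RNA whose cap lacks the methyl mark that host mRNA carries next to it, and keeps such RNA from translation. IFIT2 binds RNA rich in A and U and limits neurotropic virus in mice, and human IFIT3 stabilises IFIT1 and bridges MAVS and TBK1. Their genes are switched on either by interferon, through the factor ISGF3, or directly by IRF3, both acting at GAAA repeats of interferon-stimulated response elements.

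All 5 genes were higher in IRF3-2D than in Ctrl liver, by 10.1-fold for Ifit1bl1, 18.9-fold for Ifit3, 21.3-fold for Ifit3b, 32.6-fold for Ifit2 and 81.8-fold for Ifit1. Of 10802 genes tested, 1426 or 13.2% were called higher by edgeR's quasi-likelihood test at a Benjamini-Hochberg adjusted p under 0.05, and 13.1% were called lower. A further cut, called higher with a change of more than 4-fold, held 1.66% and took in all 5 Ifit genes. For Ifit1bl1, which passed the filter through its IRF3-2D libraries alone, the call is a description. Every IRF3-2D library lay above every Ctrl library in all 5 members and in 23.7% of the genes tested. Together the members held 0.238% ± 0.0494 of the counts in IRF3-2D libraries and 0.00464% ± 0.000633 in Ctrl libraries (SD, n = 3 each). The share was 51.3 times as large in IRF3-2D, and its exact two-sided permutation test gave p = 0.1, the smallest that 3 against 3 libraries allow. Nothing in the labels ties each library to its own mouse, and the p-values cover the spread among libraries, whatever its source.

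Library totals were 12054096 to 13606973 counts in IRF3-2D and 13940893 to 14830629 in Ctrl. Scaling factors by TMM, the edgeR method that aligns libraries on the bulk of their genes, were 1.12 to 1.23 in IRF3-2D and 0.822 to 0.879 in Ctrl. Levels below are in CPM, counts scaled to a common size of the TMM-scaled library. A gene with no count could stand at up to 0.194 to 0.203 CPM in an IRF3-2D library and 0.234 to 0.252 CPM in a Ctrl library, taking 3 counts as the limit and counting error only. Irf3, which the allele carries, had 117, 106 and 137 CPM in IRF3-2D and 42.6, 46.4 and 60.3 CPM in Ctrl libraries, 2.41-fold higher (log2 fold change 1.27, SE 0.16, adjusted p = 0.00152 by edgeR). Every IRF3-2D library stood above every Ctrl library in Irf3.

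The Ifit genes lie side by side on chromosome 19, between 34550694 and 34650009 in GENCODE M21 on GRCm38, a stretch of 99316 bases. Ifit2 (ENSMUSG00000045932, 34550694 to 34576419, plus strand) comes first, followed by Ifit3 (ENSMUSG00000074896, 34583531 to 34588731, plus strand). Next are Ifit1bl1 (ENSMUSG00000079339, 34592891 to 34601956, minus strand) and Ifit3b (ENSMUSG00000062488, 34607970 to 34613401, plus strand). Ifit1 (ENSMUSG00000034459, 34640871 to 34650009, plus strand) closes the cluster. A sixth protein-coding gene, Ifit1bl2 (ENSMUSG00000067297, 34617049 to 34640743, minus strand), lies between Ifit3b and Ifit1. It is no member of the list and is described here, after its values were seen, because its start lies 128 bases from that of Ifit1, with the pair transcribed away from each other. Ifit1, Ifit3 and Ifit3b have 1 annotated transcript each, and Ifit1bl1 and Ifit2 have 2 each.

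The members differ in how well their reads can be placed. Ifit3 and Ifit3b are near copies, with 1201 of 1212 coding bases identical (99.1%), and 61.8% of the 31-base words of Ifit3 also occur in Ifit3b. Of the words of Ifit3b, 54.1% occur in Ifit3. How reads were split between these 2 genes is therefore uncertain, and their sum is given beside them. Ifit1bl1 shares 18.7% of its words with Ifit1bl2 and 6.22% with Ifit1, and Ifit1 shares 10.5% of its words with any other gene. Ifit2 shares none of its 3841 words, so its counts do not depend on the placement of reads among relatives. Its coding sequence is 62.6% identical to that of Ifit1 over the aligned bases.

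The RefSeq promoter windows of the members (GRCm38.p6, 250 bases before to 50 after a start site) were searched on both strands for GAAA, any 2 bases and GAAA again, the repeat at the core of IRF and interferon response sites. The windows below show any match in capitals. For each member 1 window is printed, also for Ifit1bl1 and Ifit2, which have 2 each. The matches read TTTC on the printed strand because all of them lie on the opposite one. Each is printed 5′ to 3′ in the direction of its gene.
Ifit1, chr19:34640639-34640938, plus strand: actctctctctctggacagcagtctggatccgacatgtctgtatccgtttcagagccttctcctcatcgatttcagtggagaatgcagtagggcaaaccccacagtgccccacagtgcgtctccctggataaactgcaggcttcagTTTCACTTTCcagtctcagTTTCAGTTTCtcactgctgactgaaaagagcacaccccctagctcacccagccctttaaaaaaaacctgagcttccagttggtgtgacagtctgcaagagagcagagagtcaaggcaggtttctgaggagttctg
Ifit3, chr19:34583279-34583578, plus strand: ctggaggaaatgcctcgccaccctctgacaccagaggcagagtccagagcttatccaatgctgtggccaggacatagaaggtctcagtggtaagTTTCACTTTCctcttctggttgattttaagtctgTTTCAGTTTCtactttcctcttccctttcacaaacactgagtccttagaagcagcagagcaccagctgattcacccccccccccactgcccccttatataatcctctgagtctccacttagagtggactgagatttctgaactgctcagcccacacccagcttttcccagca
Ifit3b, chr19:34607707-34608006, plus strand: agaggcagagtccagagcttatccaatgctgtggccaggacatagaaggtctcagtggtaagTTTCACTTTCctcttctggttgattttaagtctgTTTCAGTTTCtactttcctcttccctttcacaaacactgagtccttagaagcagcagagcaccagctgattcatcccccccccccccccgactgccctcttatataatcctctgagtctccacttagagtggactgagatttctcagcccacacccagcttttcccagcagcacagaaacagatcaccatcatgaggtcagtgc
Ifit1bl1, chr19:34601919-34602218, minus strand: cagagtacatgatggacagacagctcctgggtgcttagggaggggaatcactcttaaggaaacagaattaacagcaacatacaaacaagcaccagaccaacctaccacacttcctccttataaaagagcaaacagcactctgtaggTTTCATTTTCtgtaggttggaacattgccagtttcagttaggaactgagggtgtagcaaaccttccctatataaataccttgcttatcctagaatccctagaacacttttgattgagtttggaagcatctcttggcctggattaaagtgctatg
Ifit2, chr19:34550444-34550743, plus strand: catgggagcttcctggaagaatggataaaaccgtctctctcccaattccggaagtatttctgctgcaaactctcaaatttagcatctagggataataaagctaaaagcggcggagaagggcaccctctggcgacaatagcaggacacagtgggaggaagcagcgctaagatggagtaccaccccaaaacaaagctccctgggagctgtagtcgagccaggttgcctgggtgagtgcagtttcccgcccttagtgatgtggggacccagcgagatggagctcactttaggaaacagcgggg

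Ifit1, Ifit3 and Ifit3b carry 2 matches each, and Ifit1bl1 carries 1 in each of its 2 windows. In Ifit1 the matches stand at -104 to -95 and -85 to -76 from the start site, with 19 bases between their first bases. In Ifit3 they stand at -156 to -147 and -122 to -113 and in Ifit3b at -188 to -179 and -154 to -145, with 34 bases between first bases in both copies. The same 2 ten-base strings, TTTCACTTTC and TTTCAGTTTC, occur in the same order in Ifit1, Ifit3 and Ifit3b. The windows of Ifit3 and Ifit3b are identical at 258 of 260 aligned bases. No match was found in either window of Ifit2, which says only that these letters are absent there. Of all 32851 windows in the table, 3.44% hold a match, and 3.99% of 27025 genes have one in any window. The longer form with a further 2 bases and another GAAA was found in no Ifit window and in 0.116% of all windows.

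The windows of Ifit1 and Ifit1bl2 overlap by 245 bases, and the 2 matches of Ifit1 are also the 2 matches of Ifit1bl2, at 34640785 to 34640794 and 34640804 to 34640813 on chromosome 19. Those letters thus lie before the starts of 2 genes that point in opposite directions.

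Ifit1, the RNA cap sensor of the family, had 17905, 17378 and 13893 counts in the IRF3-2D libraries and 165, 158 and 165 in the Ctrl libraries. In scaled units this was 1158, 1177 and 911 CPM in IRF3-2D and 13.5, 13.3 and 12.9 CPM in Ctrl. The groups were far apart, the lowest IRF3-2D library being 67.6-fold above the highest Ctrl library. The log2 fold change was 6.35 (SE 0.15, adjusted p = 3.7e-06 by edgeR), which placed Ifit1 at rank 25 of 10802 by fold change. Of the 24 genes ranked above it, 14 had no count in any Ctrl library, and 4 had a Ctrl mean of at least 1 CPM, namely Cmpk2, Rsad2, Nexn and Lrtm1.

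Ifit1bl1, which resembles Ifit1 in 78.6% of aligned coding bases, was the member with the fewest counts. It had 67, 78 and 32 counts in IRF3-2D and 3, 6 and 5 in Ctrl libraries, or 4.33, 5.28 and 2.10 CPM against 0.245, 0.505 and 0.391 CPM. The groups did not overlap, but replicate 3 stood at 43.6% of the mean of the other IRF3-2D libraries. Its log2 fold change was 3.33 (SE 0.53, adjusted p = 0.00439 by edgeR), with an SE larger than that of any other member. Because Ifit1bl1 passed the filter through its IRF3-2D libraries alone, its test is given as a description. Its neighbour Ifit1bl2 had 65, 65 and 33 counts in IRF3-2D and 3, 3 and 2 in Ctrl. It too passed the filter through its IRF3-2D libraries alone and was picked after its values were seen, so its log2 fold change of 3.99 (SE 0.51) is given as a description.

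Ifit2, the family's A- and U-rich RNA binder, had 374, 484 and 263 CPM in IRF3-2D and 15.9, 10.3 and 8.21 CPM in Ctrl libraries. Every IRF3-2D library was at least 16.5-fold above every Ctrl library. The log2 fold change stood at 5.03 (SE 0.34, with edgeR's adjusted p = 0.000123). Its spread among replicates was wide in both groups, with a coefficient of variation of 29.5% in IRF3-2D and 34.9% in Ctrl, compared with 13.7% and 2.25% for Ifit1.

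Ifit3, whose human counterpart steadies IFIT1, had 481, 491 and 366 CPM in IRF3-2D and 25.8, 22.4 and 22.4 CPM in Ctrl libraries. Its copy Ifit3b had 137, 130 and 96.2 CPM in IRF3-2D and 5.72, 5.13 and 6.17 CPM in Ctrl. The groups did not overlap, the lowest IRF3-2D library being 14.2-fold above the highest Ctrl library for Ifit3 and 15.6-fold for Ifit3b. The log2 fold changes were 4.24 for Ifit3 (SE 0.15, adjusted p = 1.36e-05 by edgeR) and 4.41 for Ifit3b (SE 0.17, adjusted p = 1.6e-05 by edgeR). Counted as 1 gene, which takes the split of shared reads out of the value, the sum stood at 4.28 on that scale (SE 0.15, adjusted p = 1.28e-05 by edgeR).

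**Figure D1:**
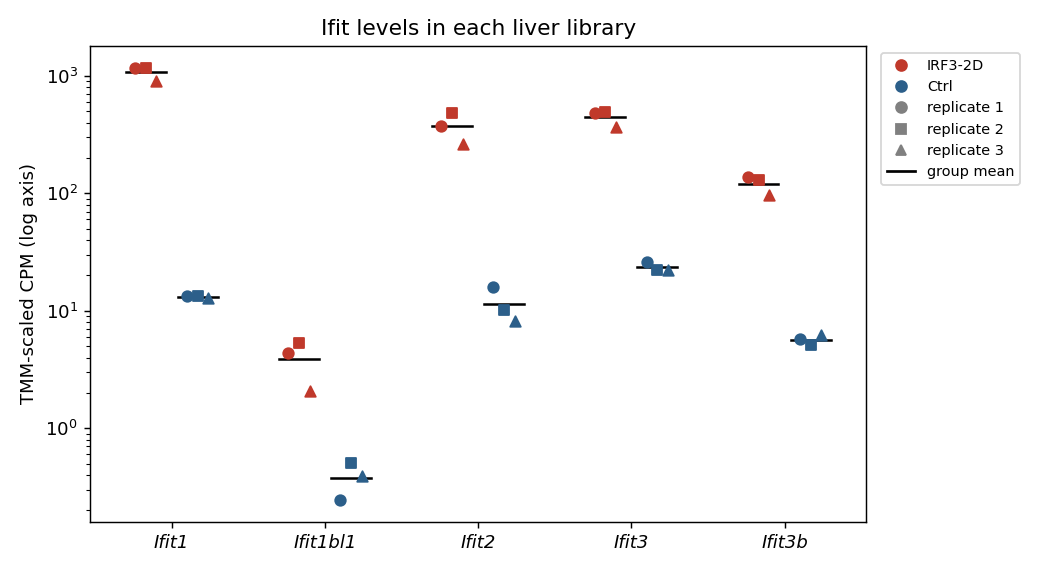
TMM-scaled CPM (log axis) of the 5 Ifit genes in each of the 6 libraries, with IRF3-2D left of Ctrl for each gene, a symbol per replicate and a bar at the group mean. The IRF3-2D libraries lie above the Ctrl libraries for every member, and replicate 3 is the lowest IRF3-2D library in all 5.

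Replicate 3 was the lowest of the IRF3-2D libraries for all 5 members. It stood at 78.0% of the mean of the other 2 libraries for Ifit1, 75.4% for Ifit3, 72.2% for Ifit3b, 61.4% for Ifit2 and 43.6% for Ifit1bl1. Replicate 3 was also the lowest IRF3-2D library for 44.5% of all genes called higher and for 35.7% of all tested genes. The same library had the highest Irf3 level of the group, at 137 CPM, so within the group the libraries' order for Irf3 was not their order for the Ifit genes. With 3 libraries this is a description only.

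Levels of different genes were compared per kilobase of annotated exons. In IRF3-2D liver the order was Ifit1 at 407 ± 56.0 CPM per kilobase, Ifit3 at 255 ± 39.7, Ifit2 at 95.2 ± 28.1, Ifit3b at 60.5 ± 10.9 and Ifit1bl1 at 1.73 ± 0.724 (SD, n = 3). In Ctrl liver it was Ifit3 at 13.5 ± 1.13, Ifit1 at 4.98 ± 0.112, Ifit2 at 2.92 ± 1.02, Ifit3b at 2.84 ± 0.261 and Ifit1bl1 at 0.168 ± 0.0576 CPM per kilobase (SD, n = 3). Ifit1 led in every IRF3-2D library and Ifit3 in every Ctrl library. The log2 ratio of Ifit2 to Ifit3b was 0.63 ± 0.26 in IRF3-2D, with Ifit2 above Ifit3b in every library, and -0.01 ± 0.53 in Ctrl, where these neighbours in the order did not differ beyond their spread. Among the 20817 genes with an annotated length, Ifit1 ranked 106 by mean level per kilobase in IRF3-2D and 4290 in Ctrl, and Ifit3 ranked 158 in IRF3-2D and 2220 in Ctrl.

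Shares in the Ifit transcript pool did not overlap between the groups for Ifit1, Ifit3, Ifit3b and Ifit1bl1, and overlapped for Ifit2. Shares add up to a whole, so they are not independent of each other. Ifit1 made up 49.8% ± 1.41 of the summed Ifit level per kilobase in IRF3-2D and 20.5% ± 1.42 in Ctrl libraries, while Ifit3 made up 31.2% ± 0.369 in IRF3-2D and 55.3% ± 0.381 in Ctrl (SD, n = 3 each). Ifit3b held 7.36% ± 0.393 in IRF3-2D and 11.7% ± 1.49 in Ctrl, Ifit1bl1 held 0.204% ± 0.0597 in IRF3-2D and 0.705% ± 0.282 in Ctrl, and Ifit2 held 11.5% ± 1.80 in IRF3-2D and 11.8% ± 3.05 in Ctrl. Ifit1 ran from 48.4% to 51.3% over the IRF3-2D libraries and from 18.9% to 21.5% over the Ctrl libraries. The share of Ifit2 reached 13.5% in IRF3-2D and ran from 9.06% to 15.1% in Ctrl, and that of Ifit1bl1 from 0.139% to 0.256% in IRF3-2D and from 0.403% to 0.961% in Ctrl.

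**Figure D2:**
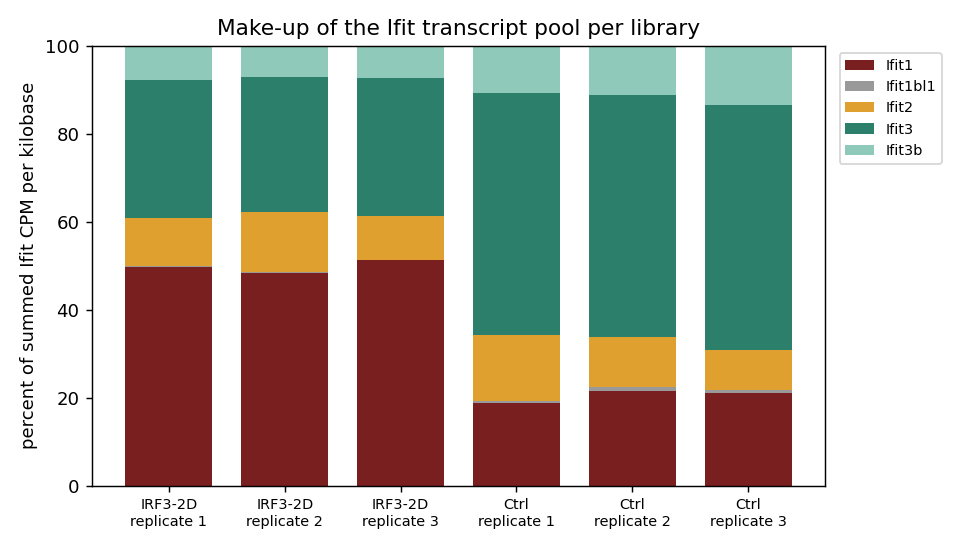
Share of each member in the summed Ifit level (CPM per kilobase of annotated exons, percent) in each library, the 3 IRF3-2D libraries left of the 3 Ctrl libraries. Ifit1 makes up 48.4% to 51.3% of each IRF3-2D bar and 18.9% to 21.5% of each Ctrl bar.

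Ratios between members within a library, which do not depend on library scaling, were compared for all 10 pairs. The log2 ratio of Ifit1 to Ifit3 was 0.68 ± 0.03 in IRF3-2D and -1.44 ± 0.10 in Ctrl, a difference of 2.11, and that of Ifit1 to Ifit2 was 2.13 ± 0.26 in IRF3-2D and 0.83 ± 0.46 in Ctrl (SD, n = 3 each). The log2 ratio of Ifit2 to Ifit3 was -1.46 ± 0.24 in IRF3-2D and -2.26 ± 0.38 in Ctrl. The groups did not overlap in 7 of the 10 ratios, for which the exact two-sided permutation test gave p = 0.1, the smallest that 3 against 3 allows (adjusted p = 0.143 over 10 pairs), so this design cannot pass 0.05. The ratio of Ifit3 to Ifit3b overlapped between the groups, at 2.08 ± 0.07 in IRF3-2D and 2.25 ± 0.17 in Ctrl on the log2 scale (exact permutation p = 0.3).

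**Figure D3:**
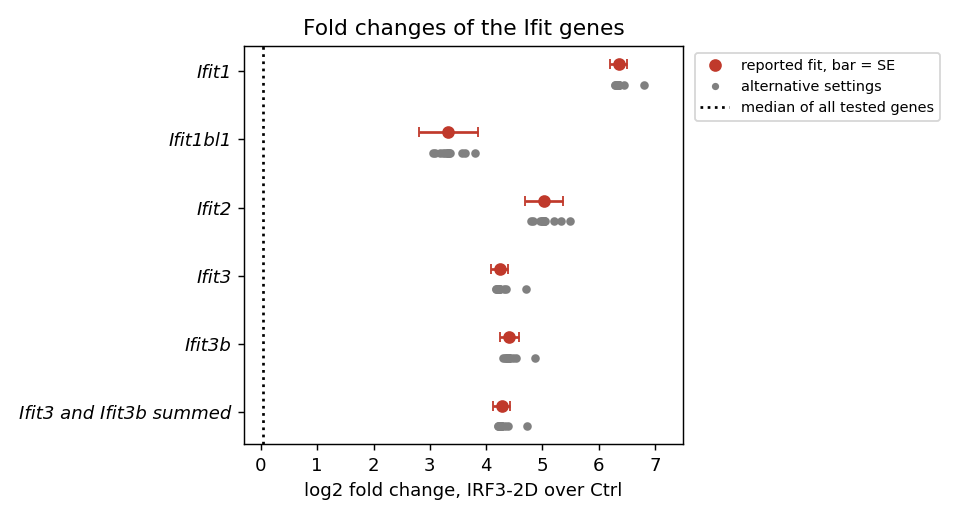
Log2 fold change of each member, and of Ifit3 and Ifit3b summed, for IRF3-2D over Ctrl, with its SE (red) and the values under the alternative settings (grey). All lie far to the right of the median of all tested genes at 0.03 (dotted line).

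Of the genes that control Ifit transcription, 13 of 14 listed were tested. Of these, 5 were called higher and 1 lower, beside 13.2% and 13.1% of all tested genes. The 5 include Irf3, which the allele itself carries. The list's median log2 fold change was 0.87, against 0.03 over all tested genes. The members' own median was 4.41. Stat2, a subunit of the interferon-activated factor, rose 3.01-fold (adjusted p = 0.000252 by edgeR), and Irf9, its DNA-binding subunit, rose 1.68-fold. Irf7, which amplifies the interferon response, had 467, 566 and 582 counts in IRF3-2D and 147, 131 and 126 in Ctrl, a rise of 3.24-fold. Irf1, an activator, rose 2.00-fold and Irf2, a repressor of the same elements, fell 1.70-fold, both named after their values were seen. With library totals alone 10 of the 13 were higher, beside 4500 of all 10802 tested genes in that setting.

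Interferon transcripts themselves were near the limit of detection. Of 20 type I and III interferon genes with a row, 18 had no count in any library, Ifnb1 among them, the highest count of any was 3, and none passed the filter. Their sum reached at most 0.259 CPM in an IRF3-2D library and was 0 in the Ctrl libraries, each of which allows up to 0.234 to 0.252 CPM per gene. A level below that limit was not detectable at this depth, and a listed 0 may also be a failed estimate, since some genes that most cells use were near 0 in this table, such as the translation factor gene Eif3m with 2 to 4 counts and Eif3i with 0 to 19.

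Most of the other RNA-directed antiviral genes tested were also called higher. Of 20 listed, 16 had a row and 13 were tested, of which 11 were called higher, beside 13.2% of all tested genes. The list's median log2 fold change was 2.19, against 0.03 over all tested genes. Leaving out single libraries gave 8 to 10 higher calls. Rsad2, which makes a chain-terminating nucleotide, had a log2 fold change of 7.65, and Oasl1, a relative of the RNA sensors of the 2-5A system, had one of 5.78. Oas1a, a member of that sensor family, rose by a log2 fold change of 2.92, and Zc3hav1, which encodes the RNA-binding protein ZAP, by 2.29 (adjusted p at most 2.54e-05 for these 4 by edgeR). Among the 11 called, Oasl2 had 220, 182 and 161 counts in IRF3-2D and 0, 5 and 1 in Ctrl libraries. It passed the filter through its IRF3-2D libraries alone, so its call is a description. The same holds for Oas1c, whose Ctrl libraries, with 23, 26 and 5 counts, would not have passed it. Ddx58, which encodes the sensor RIG-I, was listed at 0 in all 6 libraries, which cannot be told apart from a failed estimate.

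Lists of genes whose products act beside IFIT proteins were read against the 13.2% of all tested genes called higher and the 13.1% called lower. Among the enzymes that cap mRNA and methylate the cap, the mark that IFIT1 reads, 5 were tested and Cmtr1, which methylates the first nucleotide after the cap, was called higher, at 25.8 ± 3.09 CPM in IRF3-2D and 16.5 ± 3.43 in Ctrl (log2 fold change 0.65, adjusted p = 0.0362 by edgeR). That call was lost without IRF3-2D replicate 2 (0.59) or 3 (0.60) and without Ctrl replicate 1 (0.49) or 3 (0.69). Of 8 tested genes of the MAVS and TBK1 signalling chain, which acts upstream of IRF3, 1 was called higher, the kinase gene Tbk1, 1.53-fold (adjusted p = 0.00333 by edgeR), and 3 had an unadjusted p under 0.05. By edgeR 0 of the 8 were called lower and by DESeq2 1. With library totals alone 4 were higher, beside 4500 of all 10802 tested genes.

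Of 11 tested subunits of eIF3, a translation factor that human IFIT proteins bind, 4 were called lower, beside 13.1% of all tested genes, with a list median of -0.09 on the log2 scale. Eif3c (-0.45), Eif3f (-0.41), Eif3h (-0.27) and Eif3l (-0.26) had small negative log2 fold changes under TMM. With library totals alone these were positive, at 0.0040, 0.04, 0.18 and 0.20. In that setting 6 of the 11 were called higher, beside 4500 of all 10802 tested genes. Leaving out any 1 of the IRF3-2D libraries, or Ctrl replicate 2 or 3, gave 2 lower calls in place of 4.

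The genes around the Ifit cluster are given with their values, and the nearest on each side with its distance. The farthest lay to the right, Htr7, which was not tested, at 1308725 bases and Rpp30 at 1433707 bases. Of the 10 nearest protein-coding genes with a row, 5 on each side, 8 were tested. By edgeR 0 were called higher, as by DESeq2 and limma-voom, and 2 were called lower, which were also the 2 with an unadjusted p under 0.05. Over all tested genes 13.2% were called higher and 13.1% lower, and nothing particular to the neighbours is read from their counts. To the left, Lipa, a lysosomal lipase gene 23220 bases from Ifit2, had a log2 fold change of -0.41 (SE 0.27). Farther left, the death receptor gene Fas had one of 1.47 (SE 0.67, edgeR's adjusted p = 0.154), the smooth muscle actin gene Acta2 one of 0.04 (SE 0.45) and the deubiquitinase gene Stambpl1 one of 0.61 (SE 1.58). With library totals alone Fas was called higher (1.91, adjusted p = 0.0495 by edgeR), as were 4500 of all 10802 tested genes. Fas had 16, 10 and 19 counts in IRF3-2D and 1, 5 and 7 in Ctrl libraries. It passed the filter through its IRF3-2D libraries alone, so that call is a description.

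To the right, the transporter gene Slc16a12, 18394 bases from Ifit1, was called lower at -0.46 (SE 0.11, adjusted p = 0.0198 by edgeR), a call that was lost without Ctrl replicate 2 (-0.47) or 3 (-0.38) and with library totals alone (-0.0032). Pank1, a pantothenate kinase gene of coenzyme A synthesis, had 2615, 2497 and 2946 counts in IRF3-2D and 4533, 4726 and 5339 in Ctrl, or 177 ± 13.8 CPM in IRF3-2D and 395 ± 23.6 in Ctrl, 2.23-fold lower (log2 fold change -1.16, SE 0.10, adjusted p = 0.0003 by edgeR). Beyond it, the kinesin gene Kif20b was at -0.39 (SE 0.83) and the RNase P subunit gene Rpp30 at 0.04 (SE 0.26). On the left side, 75530 bases from the cluster, Ch25h, an interferon-responsive gene for cholesterol 25-hydroxylase, did not pass the filter. It had 10, 13 and 8 counts in IRF3-2D and 7, 0 and 3 in Ctrl libraries.

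**Figure D4:**
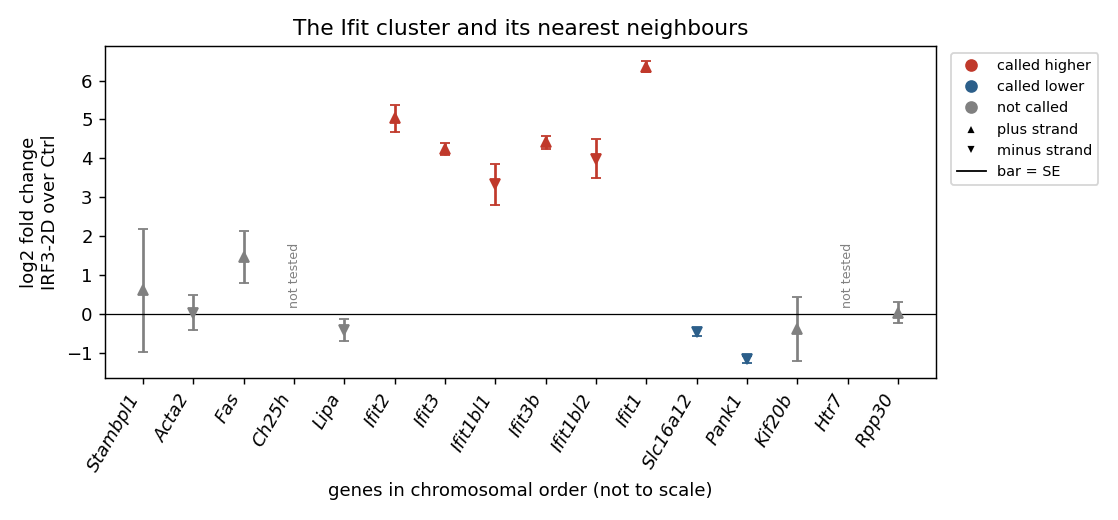
Log2 fold change (IRF3-2D over Ctrl, bar is the SE) of the 6 Ifit genes of the cluster and the 5 nearest protein-coding genes with a row on each side, in chromosomal order and not to scale, with the strand as the direction of the triangle. In this fit the Ifit genes lie between 3.33 and 6.35, while the tested neighbours lie between -1.16 and 1.47. Stambpl1, with few counts and an SE of 1.58, reached 4.12 without Ctrl replicate 1.

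The 5 genes outside the family whose pattern over the 6 libraries was closest to the mean Ifit pattern were found by the root mean square difference of centred log2 CPM. They were Bambi (0.20), Rapgef4 (0.27), Btbd10 (0.29), Il33 (0.30) and Abcc4 (0.32), with 6 libraries behind each value. Bambi, a decoy receptor of the TGF-beta family, averaged 87.4 ± 11.4 CPM in IRF3-2D and 3.03 ± 0.373 in Ctrl (SD, n = 3 each; log2 fold change 4.85, SE 0.15, adjusted p = 7.99e-06 by edgeR). Il33, which encodes an alarmin cytokine, averaged 114 ± 1.38 CPM in IRF3-2D and 3.68 ± 0.746 in Ctrl (log2 fold change 4.94, SE 0.14). The other three had no count in any Ctrl library, so their place in this order depends on the prior count of 2. Measured against 3 counts in each Ctrl library, Rapgef4 was at least 17.9-fold higher, Abcc4 at least 17.4-fold higher and Btbd10 at least 10.6-fold higher in IRF3-2D. These bounds cover counting error only, since a listed 0 may also be a failed estimate. Such genes passed the filter through their IRF3-2D libraries alone. All 5 genes were picked for a pattern that holds the group difference, so their values are a description.

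Markers of the liver's cell types were read beside these values, since in bulk RNA fewer cells of a type and less RNA per cell cannot be told apart. Over all tested genes 13.2% were called higher and 13.1% lower, and with library totals alone 4500 of 10802 were higher and 571 lower. Of 9 tested hepatocyte markers, 7 were called lower (4 with library totals alone) and 1 was called higher in IRF3-2D. Their sum was 77522 to 88834 CPM in IRF3-2D and 143491 to 191921 CPM in Ctrl. Alb alone averaged 50833 CPM in IRF3-2D and 118676 CPM in Ctrl. Among markers of Kupffer cells and other macrophages, 4 of 11 tested were called higher, a count that ran from 2 to 7 when single libraries were left out and was 8 with library totals alone. Their sum was 924 to 1255 CPM in IRF3-2D and 514 to 612 CPM in Ctrl, and without Mpeg1 it was 485 to 694 CPM in IRF3-2D and 411 to 457 CPM in Ctrl. Of the 11 macrophage markers other than Mpeg1, 10 were lowest in replicate 3 within the IRF3-2D group, as the Ifit genes were, beside 35.7% of all tested genes. All the endothelial markers tested were lowest in that library too, so the trait is not particular to macrophage markers. Cd68 stood at 0 to 2 counts. The part of these cell types in the Ifit values was not tested.

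Sums of the other marker lists were small or lower in IRF3-2D. Their calls stand beside 13.2% of all tested genes called higher and 13.1% called lower. With library totals alone 571 of 10802 were called lower. Monocyte and dendritic cell markers summed to 7.08 to 24.6 CPM in IRF3-2D and 3.11 to 8.17 CPM in Ctrl. Of 5 tested, 1 was called higher, Ly6c2 (0 without IRF3-2D replicate 2 or by limma-voom). Ly6c2 had 74, 102 and 27 counts in IRF3-2D and 8, 3 and 9 in Ctrl. It passed the filter through its IRF3-2D libraries alone, so its call is a description. T and NK cell markers summed to 4.01 to 6.98 CPM in IRF3-2D and 2.36 to 4.82 CPM in Ctrl, B cell markers to 2.10 to 4.08 and 1.80 to 3.43 CPM, and neutrophil markers to 4.46 to 9.42 and 3.28 to 7.19 CPM in the same order. For these 3 lists 2 markers each were tested, and 0 were called or had an unadjusted p under 0.05 by edgeR, with 0 called by DESeq2 and limma-voom. Endothelial markers summed to 287 to 397 CPM in IRF3-2D and 426 to 434 CPM in Ctrl, with 3 of 8 tested called lower (0 with library totals alone or without Ctrl replicate 2 or 3, and 1 without Ctrl replicate 1 or IRF3-2D replicate 1 or 2). Stellate cell markers summed to 135 to 152 CPM in IRF3-2D and 156 to 205 CPM in Ctrl, with 1 of 6 called lower and Pdgfrb at 0 in all libraries. Cholangiocyte markers summed to 13.4 to 22.3 CPM in IRF3-2D and 16.0 to 35.1 CPM in Ctrl, with 0 of 5 called by edgeR, 2 at an unadjusted p under 0.05, and 1 called higher by DESeq2.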

How the data were processed

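Per-gene values deposited by the authors are estimated counts for each of the 6 libraries, without normalization. The submitters' processing notes name Salmon 1.2.1, GRCm38 and mm10. RNA was poly-A selected and libraries kept strand, per the labels' protocols; the annotation, strand setting and filters used upstream are not stated. The deposited estimates are whole numbers. Of 20894 identifiers, 20817 were matched to GENCODE M21. Low genes were removed with edgeR 4.0.16 in R 4.3.3 (filterByExpr), and libraries were scaled by TMM and compared by the quasi-likelihood F-test with the group as the only term, adjusting over 10802 genes at a threshold of 0.05. The SE is the log2 fold change over the root of its F. Replicates differed by more than counting noise (chi-square per degree of freedom 20.2 to 120) and no batch is labelled. The members and lists were chosen with earlier results of these data known. Named were all members, Irf3, up to 4 called genes per list by adjusted p, the tested neighbours and the 5 genes of most similar pattern. Alternatives were DESeq2 1.42.0, limma 3.58.1 (voom), RLE and upper-quartile scaling, library totals alone, other filters, a replicate block and leaving out each library.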

Additional observations from a re-analysis of the deposited data

How the results depend on the processing

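All 5 members and the sum of Ifit3 and Ifit3b stayed higher and past the threshold under each alternative that could be computed, 69 values for the 5 members. A mean count of at least 50 left out Ifit1bl1. The log2 fold changes ran from 6.29 to 6.81 for Ifit1, 4.80 to 5.49 for Ifit2, 4.17 to 4.70 for Ifit3, 4.30 to 4.87 for Ifit3b and 3.05 to 3.80 for Ifit1bl1, whose adjusted p reached at most 0.0240, with limma-voom. With library totals alone the median of all tested genes was 0.49, against 0.03 with TMM, and 4500 genes were higher and 571 lower. Leaving out 1 library gave 851 to 1312 genes higher and 920 to 1363 lower, the lowest without IRF3-2D replicate 2. The replicate block gave 1038 higher and 1128 lower, and the correlations of same-numbered libraries (0.096, -0.034 and 0.045) did not pair them. It ended the calls of Slc16a12 (-0.46), Eif3h (-0.28) and Eif3l (-0.26). The members' share of counts was 0.217% to 0.265% in IRF3-2D and 0.00428% to 0.00485% in Ctrl when single libraries were left out, and 0.203% in IRF3-2D and 0.00543% in Ctrl with the TMM-scaled total. Among genes that were not called, Lipa (0.058) and Kif20b (0.061) changed sign with library totals alone. When single libraries were left out, Acta2 (-0.31 to 0.60), Kif20b (-0.83 to 0.51) and Rpp30 (-0.14 to 0.14), also not called, did so. Stambpl1, not called either, kept its sign but ran from 0.033 to 4.12 when single libraries were left out. Of the genes called lower, Eif3c (0.0040), Eif3f (0.043), Eif3h (0.18) and Eif3l (0.20) changed sign with library totals alone and were then not called. The cause was not tested beyond the shift in scaling. Depth limits Ifit1bl1, with 3 to 6 counts in Ctrl libraries. It passed the filter through its IRF3-2D libraries alone, so its calls are a description.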
